A study of Rattus norvegicus with 7 samples.

Results

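The miR-26 family was represented on the array by 4 of 677 rat miRNAs, namely miR-26a, miR-26b and their star arms miR-26a* and miR-26b*. They were selected by name, as all entries of the array called rno-miR-26a or rno-miR-26b with or without a star, and the rule itself uses no measured value, although the family was taken up with earlier results of these data known. Below, names are those of the array without the species prefix rno. The samples were livers of adult male Sprague-Dawley rats. Rats of the PFOS group had been fed potassium perfluorooctanesulfonate (PFOS), a man-made fluorinated compound that is very slow to break down, at 50 mg/kg diet over 28 days. Rats of the Control group had been fed a control diet over the same time. The study asked about hepatic miRNA profiles in exposed rats, alongside their thyroid hormone balance. Total RNA of single rats was labelled with the dye Cy3 and hybridised to 1-colour Agilent rat miRNA arrays, and 4 PFOS and 3 Control arrays were available, since the submitters had left out 1 Control array on quality grounds.

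MicroRNAs are short RNAs that pair through their seed, bases 2 to 8 counted from the 5′ end, with sites in messenger RNAs and lower their translation and stability. The miR-26 miRNAs are abundant in liver and in most other mammalian tissues. In human and mouse cells they are known to repress Ezh2, a histone methyltransferase, and cyclins of the G1 phase. In mice they are further known for restraining liver tumour growth and for a part in hepatic insulin sensitivity. Their genes lie within genes of the Ctdsp family, small phosphatases that act on RNA polymerase II, and guide strand and star strand are cut from the same hairpin.

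The mature sequences are shown because the 2 guide strands differ so little that their separate signals have to be read with this in mind. All 4 names were matched in RefSeq (GRCr8 build), with the unstarred names taken as the 5′ arm and the starred names as the 3′ arm. Seeds are in capitals.
miR-26a: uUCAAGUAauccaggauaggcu
miR-26b: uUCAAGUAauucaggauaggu
miR-26a*: cCUAUUCUugguuacuugcac
miR-26b*: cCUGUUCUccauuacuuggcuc
The guide strands shared their seed with each other and with no other of the 724 mature rat sequences of the table. Over the 21 positions that both have, 19 were identical, and with positions counted from the 5′ end the differences from miR-26a to miR-26b were C11U and C21U. The star strands were less alike, with 14 of 21 positions identical, and the change A4G within the seed gave each a seed of its own. The hairpins follow, with both mature arms in capitals.
Mir26a: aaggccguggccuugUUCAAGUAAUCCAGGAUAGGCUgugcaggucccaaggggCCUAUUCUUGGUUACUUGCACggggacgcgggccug
Mir26b: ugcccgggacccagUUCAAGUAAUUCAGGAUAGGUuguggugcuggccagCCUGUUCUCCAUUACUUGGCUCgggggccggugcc
In that annotation Mir26a lay on chromosome 8 within the span of Ctdspl, and Mir26b on chromosome 9 within the span of Ctdsp1, each on the strand of its host gene. The array was annotated on another assembly (rn4), so no positions are given. The files hold no probe sequences, so how far each probe separates the 2 guide strands was not tested.

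Over the series, 175 of the 677 miRNAs were detected widely enough to be tested, and the small number of arrays limits the precision of every value. All arrays lay on 1 slide with 1 scan time, and no spot was saturated. The PFOS arrays were brighter before any scaling. Their median signal over the 123 miRNAs detected on every array was 258 ± 46.2 (SD, n = 4), against 149 ± 23.9 (SD, n = 3) on the Control arrays. On PFOS arrays, synthetic RNAs added at labelling gave 7887 ± 1919 (SD, n = 4), and on Control arrays they gave 3534 ± 116 (SD, n = 3), a ratio of 2.23, while those added at hybridisation gave a ratio of 0.929. Every level below therefore rests on how the arrays were brought to a common scale. As a check of the tissue, miR-122, the defining hepatocyte miRNA, was the brightest of the tested miRNAs, with a mean normalised signal of 58667 on PFOS and 58487 on Control arrays.

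Both guide strands were among the brightest miRNAs of the liver in both groups. By signal, miR-26a held rank 7 of 677 on every one of the 7 arrays. miR-26b held rank 9 on 6 arrays and rank 8 on PFOS replicate 4. Of the 280 spots of the 2 guide strands, 269 had no outlier flag and were kept, and all 269 were well above background. As a share of the summed unscaled signal of an array, miR-26a made up 2.23% ± 0.108 (SD, n = 4) on PFOS arrays and 1.99% ± 0.112 (SD, n = 3) on Control arrays. The share of miR-26b was 1.77% ± 0.104 on PFOS arrays and 1.48% ± 0.104 on Control arrays, and for each of them every PFOS array was above every Control array. With miR-122 left out of the sum, the groups overlapped for both. Separation in such shares was not counted over the other tested miRNAs. Ranks are of signal, and because probes differ in brightness they are not ranks of abundance. The miRNAs next to miR-26a in the order were let-7a and miR-192 above it and miR-29a and miR-26b below it. Its normalised signal over the 7 arrays, from 2865 to 3157, did not overlap that of let-7a (3935 to 4429), and it overlapped that of miR-29a (2211 to 2895). For miR-26b, at 2097 to 2543, the range overlapped those of miR-29a, miR-101b (1726 to 2160) and let-7c (1825 to 2129).

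No difference in either guide strand passed the test between PFOS and Control livers, and the estimated differences were small. The normalised signal of miR-26a was 3152, 3157, 3106 and 2966 on PFOS arrays, against 2865, 3027 and 3047 on Control arrays. PFOS replicate 4 lay below 2 of the Control arrays, so the groups overlapped, and Control replicate 1 was the lowest array of all. The means were 3096 ± 89.2 (SD, n = 4) in PFOS livers and 2980 ± 99.6 (SD, n = 3) in those of Control rats. The log2 fold change was 0.06 (SE 0.06, limma adjusted p = 0.725 over 175 miRNAs). In fold terms that was 1.04, with a 95% interval from 0.932 to 1.16. Within the first slide row (2 PFOS arrays, 1 Control array) the log2 difference was 0.14, and within the second (2 and 2 arrays) it was -0.00069.

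For miR-26b the normalised signal was 2519, 2543, 2298 and 2481 on PFOS arrays, against 2238, 2097 and 2331 on Control arrays. PFOS replicates 1, 2 and 4 lay above all Control arrays, and PFOS replicate 3 lay just below Control replicate 3. The means were 2460 ± 111 (SD, n = 4) in PFOS livers and 2222 ± 118 (SD, n = 3) in those of Control rats. The log2 fold change was 0.15 (SE 0.07, unadjusted p = 0.0925, limma adjusted p = 0.352). The fold was 1.11, with a 95% interval from 0.978 to 1.25. The log2 difference was 0.18 within the first slide row and 0.11 within the second. These intervals bound the size of a difference under this normalization and do not show that the groups were alike.

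Across all tested miRNAs limma likewise gave 0 calls at an adjusted p under 0.05 (0% of the tested), with 15 higher (8.57%) and 19 lower (10.9%) in PFOS at an unadjusted p under 0.05, 19.4% in all. Neither guide strand was among those 34. Of the tested miRNAs, 102 had a 95% interval within 1.5-fold in both directions, the 2 guide strands among them. The median log2 fold change of all tested was -0.02.

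**Figure D1:**
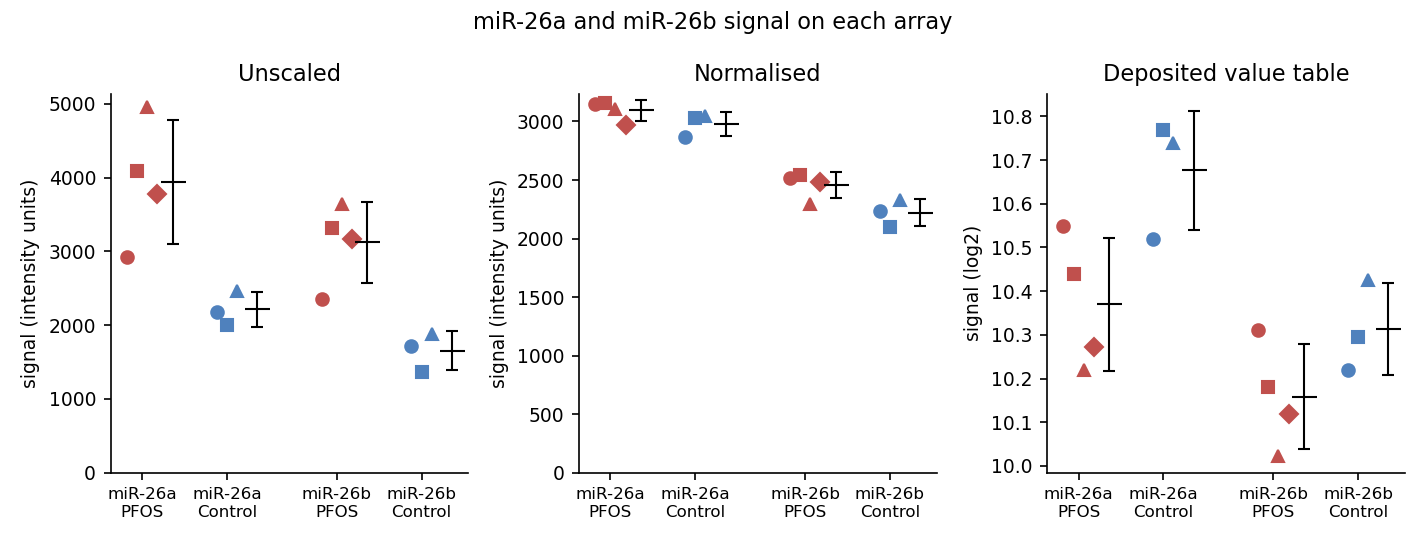
Signal of miR-26a and miR-26b on each array in 3 forms, unscaled and normalised (intensity units) and in the deposited value table (log2, axis not from 0). Symbols are the arrays (circle, square, triangle and diamond for replicates 1 to 4; red PFOS, blue Control), bars the mean and SD. PFOS arrays are all higher unscaled, overlap with Control arrays after normalization and are lower on average in the deposited table.

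The spread between rats was narrow for miR-26a. Its residual standard deviation over the arrays, after the group means were removed, was 0.04 on the log2 scale, the 4th smallest of 175, against a median of 0.19 over all tested miRNAs and 0.09 over the 30 brightest. That of miR-26b was 0.07, the 18th smallest. This order moved with the processing. Scaled by the 75th percentile without loess, miR-26a was 15th and miR-26b 37th, and in the deposited value table they were 121st and 96th.

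**Figure D2:**
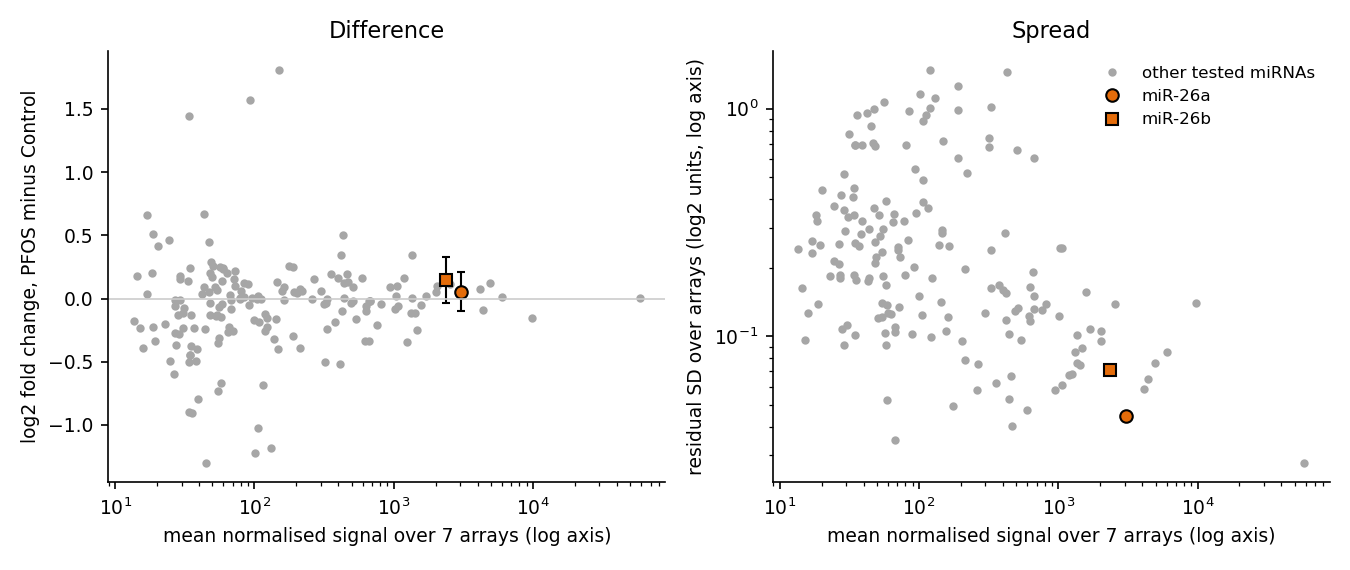
Log2 fold change (left, PFOS minus Control) and residual SD (right, log2 units) of the 175 tested miRNAs against mean normalised signal on a log axis. miR-26a and miR-26b are the orange symbols, with 95% intervals on the left. Both lie near 0 on the left, and on the right miR-26a, at 0.04, has one of the smallest spreads.

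Each guide strand was read by 2 probes of 10 spots each per array, and the group differences of a miRNA's probes had the same sign. For miR-26a, the brighter probe (A_26_P00002571) had a mean of 1970 ± 70.6 over PFOS arrays and 1910 ± 73.1 over Control arrays (SD, n = 4 and 3). The dimmer one (A_26_P00001225) had a mean of 1126 ± 67.9 over PFOS arrays and 1070 ± 33.0 over Control arrays. Their log2 differences were 0.04 and 0.07, and the groups overlapped for both. From array to array they did not always go together. On PFOS replicate 3 the dimmer probe was at 1208, its highest of the 7 arrays, and the brighter at 1899, its lowest PFOS array. For miR-26b, A_26_P00001229 had a mean of 1375 ± 60.1 in PFOS livers and 1234 ± 44.3 in Control livers, with a log2 difference of 0.16, and was the only one of the 4 probes with every PFOS array above every Control array. Of all tested miRNAs, 17 (9.71%) showed that separation upward in the signal summed over their probes, and single probes were not counted. The other probe of miR-26b, A_26_P00001228, had a mean of 1085 ± 59.9 in PFOS livers and 988 ± 74.0 in Control livers, with a log2 difference of 0.14 and overlap. The spots of a probe within an array had a coefficient of variation from 2.82% to 17.6%, with a median of 7.45%. The highest was that of the brighter miR-26a probe on PFOS replicate 3.

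**Figure D3:**
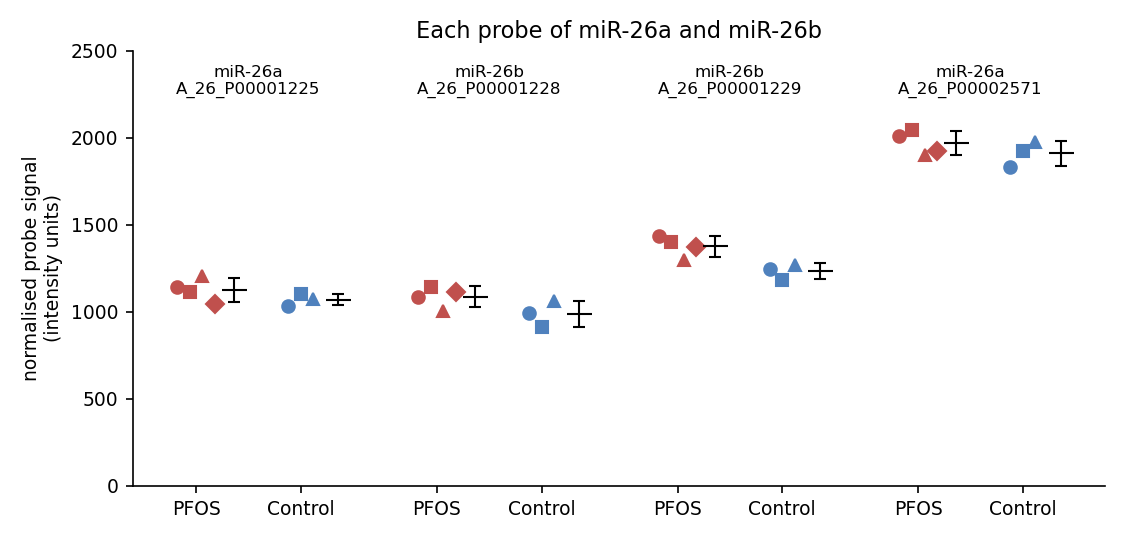
Normalised signal of each of the 4 probes on each array (intensity units; symbols as replicates 1 to 4, red PFOS and blue Control, bars mean and SD). Only A_26_P00001229, a miR-26b probe, has all PFOS arrays above all Control arrays.

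The ratio of miR-26a to miR-26b within an array does not change when an array is multiplied by 1 factor, though loess can move it, and asks whether the pair differed unequally between the groups. From unscaled signals the difference was -0.10 (exact two-sided permutation p = 0.229). The log2 ratio of the normalised signals was 0.32, 0.31, 0.44 and 0.26 on PFOS arrays, against 0.36, 0.53 and 0.39 on Control arrays. PFOS replicate 3 lay inside the Control range and Control replicate 2 was the highest. The mean was 0.33 ± 0.07 (SD, n = 4) in PFOS and 0.42 ± 0.09 (SD, n = 3) in Control livers, a difference of -0.09. Over the 35 splits of the arrays, the exact permutation p, two-sided, was 0.257, and the smallest that this design can give is 0.0286. Of the probe pairs, 4 of 4 gave a negative difference, from -0.12 to -0.07, but they share the same arrays and spots. The ratio says nothing of which miRNA is the more abundant.

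That ratio reached the smallest possible p in some other summaries of the spots. In the deposited value table it was 0.24, 0.26, 0.19 and 0.15 on PFOS arrays, against 0.30, 0.47 and 0.31 on Control arrays, so that the groups separated, with a difference of -0.15 (exact two-sided permutation p = 0.0286). When every miRNA was summarised by its brightest probe before normalization, the difference was -0.12 (exact two-sided permutation p = 0.0286). For those same 2 probes under the main normalization it was -0.12 with overlapping groups (exact two-sided permutation p = 0.0571). Without Control replicate 2 the difference of the normalised ratio was -0.04 (exact two-sided permutation p = 0.6, where 15 splits were possible), against -0.09 with it. Within the first slide row (2 PFOS arrays, 1 Control array) the difference was -0.04, and within the second (2 and 2 arrays) -0.11.

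**Figure D4:**
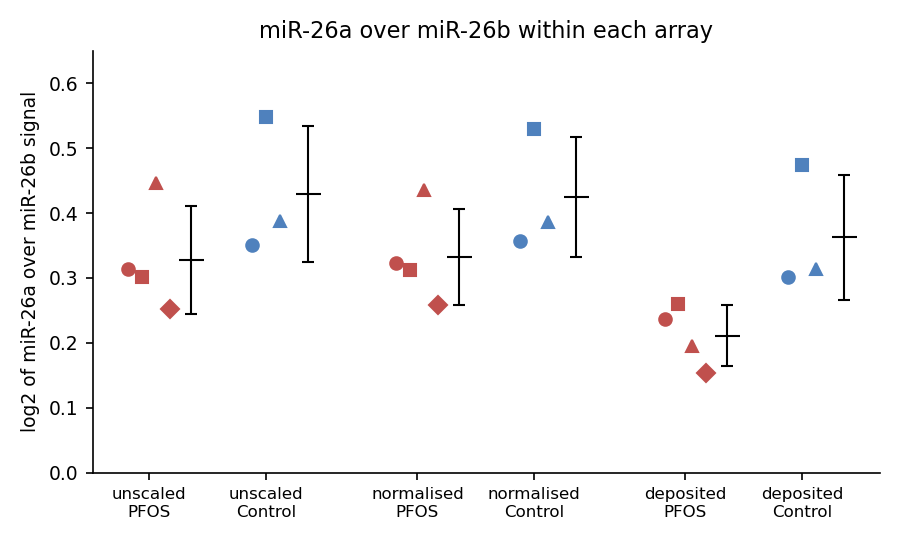
Log2 ratio of miR-26a to miR-26b signal within each array, from unscaled, normalised and deposited values (symbols as replicates 1 to 4, red PFOS and blue Control, bars mean and SD). Groups overlap in the first 2 forms and separate in the deposited values, where PFOS arrays reach at most 0.26.

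The star strands were not detected on any array of either group. For miR-26a*, 0 of 140 spots were well above background, and its summed signal ran from -4.54 to -0.422 on PFOS and from -0.911 to 0.684 on Control arrays, where negative values are below the local background. For miR-26b*, read by 4 probes, 1 of 140 spots was well above background, on PFOS replicate 3, and the sums were 6.26 to 12.6 on PFOS and 7.04 to 13.4 on Control arrays. Neither star strand entered the test, and no ratio of guide to star strand is given. The background of an array sets a limit here, so these values do not show that the star strands are absent from liver.

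The direction of both guide strands depended on the processing. Unscaled, miR-26a was 2930, 4094, 4962 and 3777 on PFOS arrays, against 2186, 1999 and 2468 on Control arrays, and miR-26b was 2358, 3321, 3641 and 3171 on PFOS arrays, against 1714, 1367 and 1886 on Control arrays. Every PFOS array was thus above every Control array, with log2 differences of 0.81 and 0.91, and the median of all tested miRNAs was then 0.69. Separation of unscaled signals was not counted over all tested miRNAs, but 53 of the 175 were called higher without normalization. Scaled by the 75th percentile of the detected miRNAs without loess, the differences were 0.15 (SE 0.08) for miR-26a and 0.25 (SE 0.10) for miR-26b, with limma adjusted p = 0.387 and 0.242. Every PFOS array was then above every Control array for miR-26a, as for 13.1% of the tested miRNAs, while the groups overlapped for miR-26b. The unadjusted p of miR-26b was 0.0372, and 12% of the tested miRNAs were higher at an unadjusted p under 0.05. Scaled by the labelling spike-in they were -0.32 and -0.22, beside a median over the tested miRNAs of -0.43. Relative to the median of all tested miRNAs, miR-26a stood at 0.11 and miR-26b at 0.21 under either of these scalings. Both use 1 factor per array, so this distance is nearly fixed by construction. It was 0.07 and 0.16 in the main values, -0.02 and 0.01 with quantile normalization, and -0.29 and -0.14 in the deposited table.

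In the deposited value table, which the authors normalized by cyclic lowess, both differences were below 0. The deposited log2 values of miR-26a were 10.55, 10.44, 10.22 and 10.27 on PFOS arrays, against 10.52, 10.77 and 10.74 on Control arrays. PFOS replicate 1 lay above Control replicate 1, and the other PFOS arrays lay below all Control arrays. The difference was -0.31 (SE 0.10, unadjusted p = 0.0194, limma adjusted p = 0.113), where 18.3% of the tested miRNAs were lower at an unadjusted p under 0.05. For miR-26b the values were 10.31, 10.18, 10.02 and 10.12 on PFOS arrays, against 10.22, 10.30 and 10.43 on Control arrays, a difference of -0.15 (SE 0.08, limma adjusted p = 0.335). At an adjusted p under 0.05 the same fit called 9 miRNAs lower (5.14% of the tested), and neither guide strand was among them. In that table the 30 brightest tested miRNAs had a median log2 difference of -0.28, against -0.02 over all tested. With the processing used for the main values those medians were 0.01 and -0.02.

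**Figure D5:**
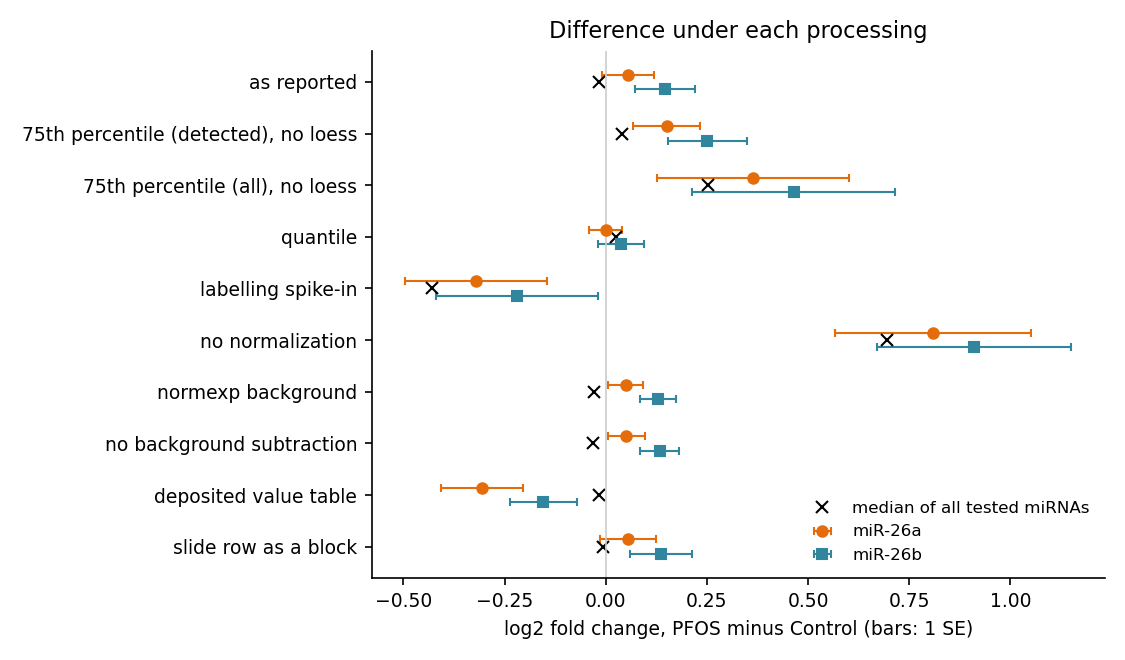
Log2 fold change (PFOS minus Control, bars 1 SE) of miR-26a and miR-26b under 10 ways of processing, with the median of all tested miRNAs as a cross. Values above 0 in most settings turn below 0 with labelling spike-in scaling, where the median is -0.43, and in the deposited table, where it is -0.02. Cyclic loess with equal weights, where both are also below 0 (-0.74 and -0.25), is not shown.

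Groups of miRNAs that share known roles with miR-26 are given by counts and medians, beside 0% called over all tested miRNAs and a median of -0.02. Of 10 hepatocyte-enriched miRNAs listed, 9 were on the array and tested, and 0 were called, with 5 positive and 4 negative and a median log2 fold change of 0.00. Its brightest members were miR-122 at 0.00 (SE 0.06), miR-22 at 0.01 (SE 0.08) and miR-192 at -0.09 (SE 0.07). In the deposited table the list's median was -0.34, and 5 of the 9 were lower at an adjusted p under 0.05, namely miR-122 at -0.67, miR-192 at -0.44, miR-122* at -0.43, miR-22 at -0.42 and miR-194 at -0.30 (limma adjusted p from 0.0348 to 0.0470), where 5.14% of all tested miRNAs were called lower. Of these, miR-122* was named after its value was seen, as was miR-214 below. The uncalled members of the list were miR-378 at -0.34, miR-101b at -0.19, miR-101a at -0.01 and miR-33 at 0.07. In the deposited table the 30 brightest tested miRNAs had a median of -0.28, and the part of brightness in these calls was not tested. Other miRNAs known to target Ezh2, mostly from work in human cells, numbered 6, of which 4 were tested and 0 called, with 3 positive and 1 negative and a median of 0.11, which was 0.01 in the deposited table. They were miR-101b at 0.10 (SE 0.09), miR-101a at 0.20 (SE 0.07, limma adjusted p = 0.224), miR-98, a let-7 relative, at 0.12 (SE 0.09), and miR-214 at -0.11 (SE 0.09). Of 17 other miRNAs known in human and mouse cells to be repressed by the growth-promoting factor MYC, as the miR-26 genes are, 15 were tested and 0 called. Of these, 10 were positive and 5 negative, with a median of 0.07, which was -0.18 in the deposited table, with 1 called there, miR-22. Its brightest were miR-22, let-7f at 0.13 (SE 0.08) and let-7a at 0.07 (SE 0.07).

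Whole liver was measured, so fewer cells of a type and less RNA per cell cannot be told apart. The 3 hepatocyte markers miR-122, miR-192 and miR-194 summed to 63020 to 65880 on PFOS and 64173 to 65266 on Control arrays, nearly all of it miR-122. Separately, miR-192 averaged 4290 on PFOS and 4562 on Control arrays, and miR-194 averaged 1378 on PFOS and 1492 on Control arrays. In the deposited table, where the guide strands were at -0.31 and -0.15, all 3 were lower at an adjusted p under 0.05, as given above. The 30 brightest tested miRNAs had a median of -0.28 there. Markers of stellate cells and fibroblasts, 6 of 6 tested, summed to 798 to 1101 on PFOS and 871 to 1065 on Control arrays. Those of leukocytes and Kupffer cells, 5 of 6 tested, summed to 1068 to 1380 on PFOS and 1178 to 1303 on Control arrays. The endothelial pair miR-126 and miR-126* summed to 1714 to 1854 on PFOS and 1571 to 1936 on Control arrays. The erythroid pair miR-451 and miR-144 summed to 438 to 1079 on PFOS and 518 to 930 on Control arrays. These ranges overlapped, but the brightest members weigh most in such sums. Singly, 4 of 6 stellate cell and fibroblast markers and 3 of 5 leukocyte and Kupffer cell markers were negative, the others positive. At an unadjusted limma p under 0.05 were miR-145 at -0.23 (no overlap), miR-223 at -0.23 and miR-152 at 0.25, with 0 called. Of all tested, 8.57% were higher and 10.9% lower at that p. The mean signal of miR-145 was 15.2, near the floor of 12.1. For the biliary and other epithelial markers, miR-200a, miR-200b and miR-429 tested of 5 and miR-200c and miR-141 detected on no array, the sums were 323 to 560 on PFOS and 87.8 to 212 on Control arrays. Their log2 differences ran from 1.45 to 1.81, with 0 called (limma adjusted p = 0.131 for each). Each of the 3 had every PFOS array above every Control array, as 9.71% of all tested miRNAs did. The Control mean of miR-429 was 17.5, near the floor of 12.1. In the deposited table the differences were 0.37 for miR-429, 0.63 for miR-200a and 0.84 for miR-200b, with 0 called. The part of these epithelial markers in the miR-26 values was not tested.

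The miRNAs whose normalised log2 signals followed the guide strands most closely over the 7 arrays are given as a description, out of 173 candidates. For miR-26a, Pearson's r was 0.83 with miR-362*, 0.82 with miR-30d, 0.76 with miR-22*, 0.75 with miR-29c and 0.74 with miR-150*. For miR-26b it was 0.89 with miR-148b-3p, 0.87 with miR-221, 0.81 with let-7i, 0.81 with miR-107 and 0.81 with miR-802. None was on both lists. Between the 2 guide strands r was 0.47 (Spearman's rho 0.68), which placed miR-26b only 24th among the 174 other tested miRNAs in likeness to miR-26a. Without the 2 arrays farthest from the miR-26a median it was 0.19. It was 0.82 after 75th percentile scaling alone, 0.92 in the deposited table and 0.99 unscaled, where both share the brightness of the array.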

How the data were processed

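Per the file headers, Feature Extraction 10.7.3.1 gave the intensity of each spot, and its processed signal, an intensity, had its background subtracted and was not normalized between arrays. The well-above-background and outlier flags came from the same software. Log2 values deposited by the authors were normalized by cyclic lowess, per the labels. A remake from the scanner files (log2 of each spot's median pixel signal, then the median per miRNA) correlated with the deposited columns at r of 0.9987 to 0.9999 across miRNAs. Column medians were 5.48 to 5.51, there was no centring per miRNA, and the lowess settings stay unknown here. RNA integrity numbers were at least 8.0, per the labels.

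Titles gave the groups, and replicate numbers are names of arrays. That arrays are separate rats rests on the labels. Unflagged spots were averaged per probe and the probes of a miRNA summed. Each array's 75th percentile, taken over miRNAs detected on all 7, was made equal, and values were floored at 12.1 (the 1st percentile of detected values), log2-transformed and put through cyclic loess weighted to those miRNAs (span 0.7, 3 iterations). A miRNA was detected where a probe of it had over 50% of its kept spots well above background, and tested where detected on 3 Control or at least 3 PFOS arrays. The group comparison was limma's moderated test (version 3.58.1 in R 4.3.3, lmFit then eBayes, 6.51 degrees of freedom). Its p-values were adjusted by Benjamini-Hochberg and called under 0.05. The ratio was tested by exact permutation. The fit was run on simulated arrays with known changes and independent noise. They held no group shift that depends on brightness, so they cannot decide between the processings. Other tools were jsonlite 2.0.0, Python 3.11.15, pandas 2.3.3 and matplotlib 3.10.9.

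The members follow a rule on names, but they, the lists and the tests were chosen with earlier results of these data known. Named besides the members were the 5 tested miRNAs of highest Pearson's r to each guide strand, the 2 next above and below in signal, and the 3 brightest tested of each list. Alternatives changed normalization, background, summary, detection, floor, moderation and slide row, and left out each array.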

Additional observations from a re-analysis of the deposited data

How the results depend on the processing

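For the guide strands the sign of the difference depended on the processing, and the cause was not tested beyond the values given. Of 30 alternatives, which share the same arrays, miR-26a was above 0 in 25, below 0 in 4 and at 0 in 1. For miR-26b, 27 were above 0 and 3 below. Below 0 were miR-26a and miR-26b with cyclic loess of equal weights (-0.74 and -0.25, SE 0.99 and 1.23), where the 458 miRNAs detected on no array carried weight, with labelling spike-in scaling (-0.32 and -0.22) and in the deposited table (-0.31 and -0.15). Within the second slide row miR-26a was at -0.00069 and within the first at 0.14. Both passed with no normalization (0.81 and 0.91, limma adjusted p = 0.0322 for each) and in a remake of the deposited summary without normalization (0.75 and 0.88, limma adjusted p = 0.0167 for each), an alternative added once the data were known. In these settings 53 and 50 of the 175 tested miRNAs were called, all of them higher, and the medians of all tested were 0.69 and 0.30. The same remake with loess of equal weights gave 0.00 and 0.14, not the deposited -0.31 and -0.15. With quantile normalization miR-26a was at 0.00 by construction, since it held rank 7 on every array. Leaving out each array gave 0.02 to 0.07 for miR-26a (0.02 without Control replicate 1) and 0.11 to 0.18 for miR-26b, and no call. The ratio was below 0 in 30 of 30 alternatives, which share the same spots. Not all of them could move it. By construction, scalings by 1 factor per array and no normalization gave the same -0.10. Changes of detection filter or of moderation left it at the main value of -0.09. The ratio passed with every miRNA taken from its brightest probe (-0.12), in the deposited table (-0.15) and in its 2 remakes, with loess (-0.14) and without normalization (-0.13). It ran from -0.13 to -0.04 without single arrays, where the exact test cannot pass. With the median over spots in place of the mean, also chosen after seeing the data, it was -0.07 (exact permutation p = 0.229). The count of 0 calls became 3 with the 75th percentile over all miRNAs, 8 with the spike-in, 53 with no normalization and 50 in that remake, 22 with normexp, 20 without background subtraction, 9 in the deposited table, 1 with the scanner software's gene signal, 1 with no detection filter and 4 with slide row as a block, and stayed 0 without any single array. The guide strands were called only in the 2 unnormalized settings. In some normalized settings miR-26b was also higher at an unadjusted limma p under 0.05. That p was 0.0210 in the remake with loess, 0.0236 with normexp and 0.0287 without background subtraction. It was 0.0313 with an intensity trend in the moderation and 0.0489 without PFOS replicate 3. Limma adjusted p there was 0.108 to 0.298, and the share of all tested miRNAs was not counted. In the 3 settings below 0 its unadjusted p was at least 0.104. No paired analysis was possible because the labels give the groups no shared replicate numbers.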

Other observations

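Values of 8 measures on the 4 PFOS arrays (both guide strands in 3 forms, their ratio and the labelling spike-in) were put to Dixon's criterion for a single distant array, and 0 passed it. Chance gives such a flag for about 1 group in 20.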
